A study of Mus musculus with 9 samples.

Results

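The comparison described here is that of oxybutynin with its vehicle in primary mouse myoblasts that lack the complex III subunit Uqcrfs1, read from RNA sequencing counts. It uses the 3 libraries of knockout cells given oxybutynin and the 3 of knockout cells given vehicle, taken by their column names, which is 6 of the 9 libraries of the series. All expressed genes were tested, which are 15720 of the 55536 genes counted. The cells came from mice with floxed Uqcrfs1 and grew in Ham's F-10 medium with 20% horse serum. Knockout cells had received an adenovirus for Cre recombinase, and the 3 remaining libraries are floxed cells that had received an adenovirus for green fluorescent protein and then vehicle. Cells were seeded 72 h after the virus and were given 7.5 µM oxybutynin, or an equal volume of DMSO, 24 h later for 5 days. No floxed cells received oxybutynin, so the drug was compared only within knockout cells, and whether its effect depends on the genotype cannot be read from these libraries. The promoter that drives Cre, the exon that is floxed and the number of mice behind the cultures are not stated in the sources used here. The labels do not tell whether replicates are separate cultures or separate mice, and each p-value therefore reflects the spread among these libraries alone, possibly a technical one.

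Complex III passes electrons from ubiquinol to cytochrome c in the inner mitochondrial membrane, and its Rieske iron-sulphur protein, the product of Uqcrfs1, is one of its catalytic subunits. Myoblasts are the dividing precursors of muscle fibres, which leave the cell cycle and switch on sarcomere genes when they differentiate. Oxybutynin blocks muscarinic acetylcholine receptors, which signal through Gq to phospholipase C and calcium release (M1, M3 and M5) or through Gi to adenylate cyclase (M2 and M4). The question named by the series title is whether the drug restores proliferation to muscle precursors with defective complex III.

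With oxybutynin, 1 gene fell and 1 gene rose at an adjusted p under 0.05 by edgeR's quasi-likelihood test, which is 2 of 15720 genes, or 0.0127% (0.00636% in each direction). AW551984, a protein-coding gene, fell by 1.003 on the log2 scale, and Gm24616, a small nucleolar RNA in an intron of Eif4a2, rose. At an adjusted p under 0.1 there were 1189 genes (7.56%), 279 higher (1.77%) and 910 lower (5.79%), and at an unadjusted p under 0.05 there were 4084 (26%). The count at 0.1 was 3 in the fit of knockout libraries alone, and 6, 4 and 5 without floxed replicate 1, 2 or 3. It thus rests on all 3 floxed libraries, which add to the estimate of the spread in the main fit. The 3 values of one group lay wholly above or below those of the other for 3477 genes, or 22.1%, of which 1654 were higher (10.5%) and 1823 lower (11.6%) with oxybutynin. For the gene lists below, the counts given of members wholly higher and wholly lower stand against this 10.5% and 11.6%.

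The count moved with the libraries compared, the test and the filter. Without knockout vehicle replicate 3, 4208 genes were called (26.8%), 1887 higher (12%) and 2321 lower (14.8%). Leaving out knockout vehicle replicate 2 gave 62 genes (0.394%), 12 higher (0.0763%) and 50 lower (0.318%), and without knockout vehicle replicate 1 or any 1 of the 3 oxybutynin libraries it was 0, where between 2521 and 3593 genes lay at an unadjusted p under 0.05. DESeq2's Wald test called 1133 of the 9320 genes to which it gave an adjusted p (12.2%), 173 higher (1.86%) and 960 lower (10.3%). Of these 1133 genes, 1120 (98.9%) were also called without knockout vehicle replicate 3, with the same sign, and they are 26.6% of the 4208. Without the filter on low counts edgeR called 1099 of 30103 genes, 277 higher and 822 lower.

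**Figure D1:**
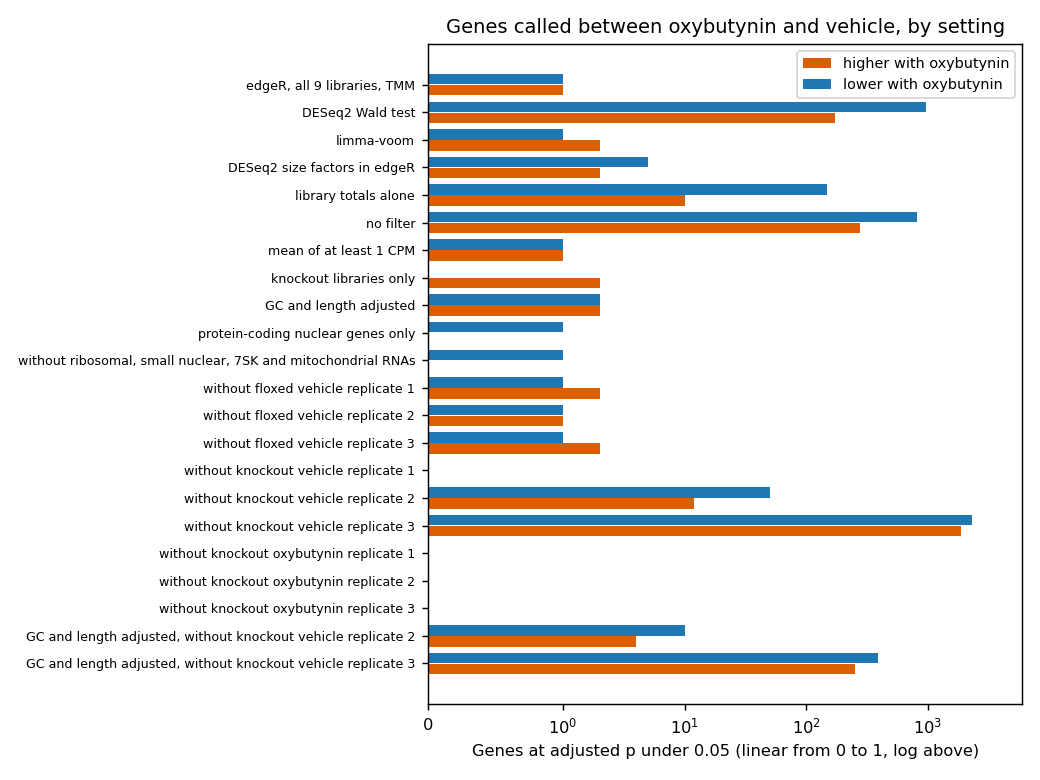
Genes called at an adjusted p under 0.05 between oxybutynin and vehicle in knockout myoblasts (x axis, number of genes, linear from 0 to 1 and logarithmic above), higher in orange and lower in blue, under each test, scaling, filter and left-out library (y axis). The count is 2 in the fit of all 9 libraries, 4208 without knockout vehicle replicate 3 and 0 when any 1 of the oxybutynin libraries is left out.

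The library labelled knockout vehicle replicate 3 stood closer to the oxybutynin libraries than to the vehicle ones. Across genes, its log2 CPM (counts scaled to the TMM-adjusted library total) correlated at 0.992 to 0.993 with the 3 oxybutynin libraries and at 0.990 and 0.986 with vehicle replicates 1 and 2. Pairs of libraries were also compared by the mean chi-square per gene, where 1 is the value for sampling noise alone. Between vehicle replicate 3 and oxybutynin replicate 3 it was 6.03, the lowest of the 15 pairs of knockout libraries. This mean used library totals without TMM scaling, and abundant RNAs can weigh heavily in it. The library labelled knockout vehicle replicate 2 stood apart on the other side, with a mean chi-square between 32.2 and 100.29 against each of the other 5. Both keep their labels here, because no gene in the table checks which cells received the drug. Leaving out the vehicle library nearest to the oxybutynin libraries in itself tends to widen the contrast and narrow the spread. Calls made without vehicle replicate 3, here and in the lists below, are therefore a description and no separate support.

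Fold changes followed the base composition of the transcripts. Between oxybutynin and vehicle the median log2 fold change ran from -0.28 in the lowest decile of protein-coding genes by GC content to 0.23 in the highest, and across these 12966 genes, which share their libraries, Spearman's correlation of log2 fold change with GC content was 0.690. The difference between the highest and the lowest decile in a library's own log2 CPM was 0.40, -0.13 and 0.62 in vehicle replicates 1 to 3 and 0.90, 0.89 and 0.62 in oxybutynin replicates 1 to 3. Vehicle replicate 3 and oxybutynin replicate 3 had nearly the same value. An exact two-sided permutation test of this difference gave p = 0.2, where 0.1 is the smallest p that 3 against 3 libraries can give. The counts of ribosomal RNA loci took 9.79 ± 2.10% (SD, n = 3) of the vehicle and 12.1 ± 1.69% of the oxybutynin libraries, and those of the mitochondrial genome 2.23 ± 0.417% and 1.78 ± 0.294%, each with p = 0.3 by the same exact test. All 7 such tests had a Benjamini-Hochberg value of 0.42 to 0.5. Medians of gene lists are therefore also given, second or in brackets, after an adjustment that subtracted every library's fitted trend on GC content and transcript length. The trend was fitted without regard to group, and some of it was left. After the adjustment, Spearman's correlation of log2 fold change with GC content was 0.143. The decile medians then ran from -0.069 at the lowest GC content to 0.022 at the highest. If the drug shifted genes in step with their GC content, that shift is largely taken away as well, and such a shift and a library trend cannot be told apart. In that fit 4 genes were called (0.0254%), 2 higher and 2 lower (0.0127% each), and leaving out knockout vehicle replicate 3 as well gave 637 (4.05%), 251 higher (1.6%) and 386 lower (2.46%).

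**Figure D2:**
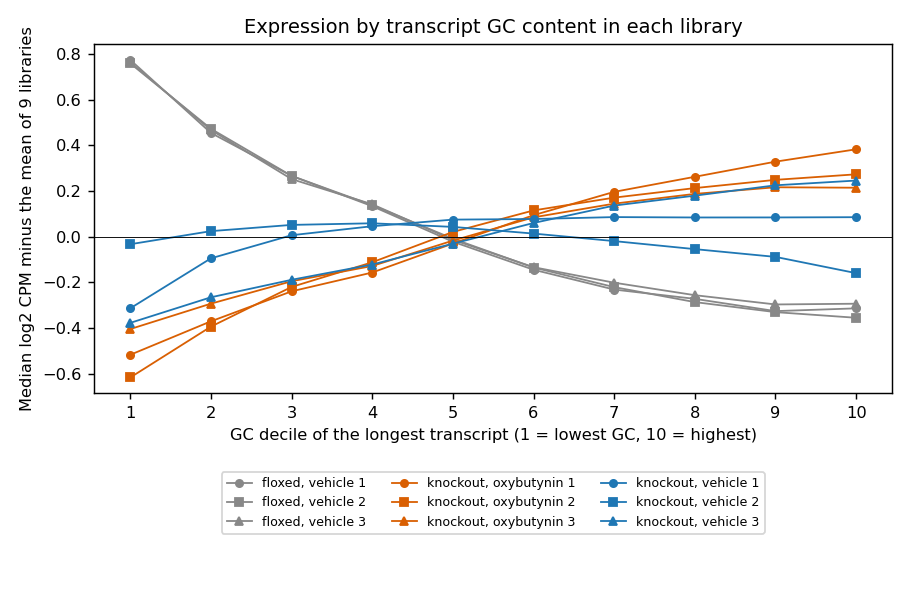
Median log2 CPM of protein-coding genes minus the mean of all 9 libraries (y axis) by deciles of transcript GC content (x axis, lowest to highest), 1 line per library, floxed vehicle in grey, knockout vehicle in blue and knockout oxybutynin in orange. Highest minus lowest decile is 0.90, 0.89 and 0.62 in the oxybutynin libraries, 0.40, -0.13 and 0.62 in the knockout vehicle libraries and between -1.11 and -1.06 in the floxed ones.

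The target of the deletion was at the same low level in both knockout groups. Uqcrfs1 (chromosome 13, 30540308 to 30545362, minus strand in GRCm38) had 51, 51 and 70 counts in the vehicle and 71, 69 and 46 counts in the oxybutynin libraries, against 1539, 1781 and 1881 in floxed cells. The groups overlapped, with a log2 fold change of 0.07 ± 0.16 (SE) between oxybutynin and vehicle (adjusted p = 0.821). All 7 myoblast markers checked (Pax7, Myf5, Myod1, Des, Cdh15, Itga7 and Megf10) were expressed, at a summed 3041 to 3620 CPM in vehicle and 3534 to 3591 CPM in oxybutynin libraries. Markers of other cells that a muscle culture can hold were low. The 12 fibroblast markers summed to 63.7 to 74.2 CPM with vehicle and 62.9 to 81.3 CPM with oxybutynin, with Lum and Scara5 at 0 in all 6 libraries. The 14 leukocyte and macrophage markers summed to 19.3 to 21.6 and 20.9 to 22.3 CPM (Cd3e at 0), the 12 endothelial ones to 34.1 to 39.6 and 39.3 to 40.7 CPM (Tie1 at 0), the 9 adipocyte ones to 13.3 to 13.6 and 13.3 to 14.6 CPM (Cidec, Lep and Retn at 0), and the 9 Schwann cell ones to 52.97 to 58.0 and 47.4 to 55.1 CPM. The 12 markers of smooth muscle and pericytes, which include Des and other genes that myoblasts express, summed to 2073 to 2529 and 2401 to 2481 CPM. None of these markers was called in the fit of all 9 libraries.

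The gene that fell was AW551984 (chromosome 9, 39587396 to 39604403, minus strand). It had 127, 148 and 143 counts in the vehicle libraries and 72, 82 and 61 in the oxybutynin libraries, or 5.92, 6.19 and 5.79 CPM against 2.94, 3.23 and 2.74 CPM. Every oxybutynin library lay below every vehicle library, and vehicle replicate 3 was close to the other vehicle libraries for this gene. The log2 fold change was -1.003 ± 0.14 (adjusted p = 0.0263). After the GC and length adjustment it was -0.82 ± 0.13 (adjusted p = 0.0457), so it was the only gene called in both fits (0.00636%). It was called under 16 of the 21 settings that tested it, with log2 fold changes between -1.08 and -0.78, and lost the call without knockout vehicle replicate 1 (adjusted p = 0.0674), without oxybutynin replicates 1, 2 or 3 (0.204, 0.0971 and 0.0896) and in the fit of knockout libraries alone (0.0772). Floxed cells had 11.7 ± 0.829 CPM of it, above both knockout groups.

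The gene that rose was Gm24616 (chromosome 16, 23111617 to 23111755, plus strand), annotated as a small nucleolar RNA. Those of the H/ACA class guide the conversion of uridine to pseudouridine in ribosomal and small nuclear RNA, and end in the trinucleotide ACA a few bases before their 3′ end. In mammals most are cut out of the introns of a host gene, and none of the 78 small nucleolar and Cajal body RNAs below with a tested host has a base in an exon of its host in GENCODE M21 (transcripts annotated as retained introns left out). The sequences of Gm24616 and of 4 further small nucleolar RNAs with the same 3′ end are shown because each was higher in all 3 oxybutynin libraries than in any vehicle library. They were chosen after their values were seen. Each is written 5′ to 3′ as its GENCODE M21 transcript (GRCm38), in lower case with the ACA followed by 2 to 4 bases at the 3′ end in capitals.
Gm24616: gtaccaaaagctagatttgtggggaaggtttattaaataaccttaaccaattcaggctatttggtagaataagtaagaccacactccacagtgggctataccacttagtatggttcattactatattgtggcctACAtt
Gm26397: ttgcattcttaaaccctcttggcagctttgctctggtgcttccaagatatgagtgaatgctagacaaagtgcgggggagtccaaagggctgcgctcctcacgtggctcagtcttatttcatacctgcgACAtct
Snora23: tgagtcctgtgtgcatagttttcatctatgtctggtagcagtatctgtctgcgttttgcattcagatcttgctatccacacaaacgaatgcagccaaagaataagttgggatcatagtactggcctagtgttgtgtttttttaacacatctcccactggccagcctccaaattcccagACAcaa
Snora73b: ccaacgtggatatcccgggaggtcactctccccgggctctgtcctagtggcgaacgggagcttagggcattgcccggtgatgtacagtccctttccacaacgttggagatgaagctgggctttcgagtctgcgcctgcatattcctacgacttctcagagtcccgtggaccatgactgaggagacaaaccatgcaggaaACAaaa
Gm24119: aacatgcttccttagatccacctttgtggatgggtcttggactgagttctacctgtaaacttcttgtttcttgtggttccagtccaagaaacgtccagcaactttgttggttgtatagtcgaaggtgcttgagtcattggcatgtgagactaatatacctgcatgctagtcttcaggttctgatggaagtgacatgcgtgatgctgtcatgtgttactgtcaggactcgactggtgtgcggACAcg
Gm24616 lies within Eif4a2 (a helicase of translation initiation). Gm26397 (chromosome 8, 126944847 to 126944980, minus strand) lies within Tomm20 (a receptor of the outer mitochondrial membrane for imported proteins), and Snora23 (chromosome 7, 110046364 to 110046547, plus strand) within Ipo7 (a nuclear import receptor). Snora73b (chromosome 4, 132352322 to 132352526, minus strand) lies within Rcc1 (the exchange factor of the GTPase Ran), and Gm24119 (chromosome 10, 91118291 to 91118536, minus strand) within Slc25a3 (the mitochondrial phosphate carrier).

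Gm24616 had 113, 92 and 181 counts with vehicle and 386, 302 and 283 with oxybutynin, or 5.26, 3.85 and 7.33 CPM against 15.8, 11.9 and 12.7 CPM. All 3 oxybutynin libraries lay above the highest vehicle library, which was replicate 3. The log2 fold change was 1.29 ± 0.19 (adjusted p = 0.0291), with 1.21 ± 0.20 after the adjustment (adjusted p = 0.0505), where it missed the threshold. Its host Eif4a2 had 271, 303 and 227 CPM with vehicle and 208, 211 and 213 CPM with oxybutynin, the opposite direction, and was not called (log2 fold change -0.34 ± 0.09, adjusted p = 0.0731). Gm24616 was called under 15 of the 20 settings in which it was tested, with log2 fold changes from 0.91 to 1.57, and was not called without knockout vehicle replicate 1 (adjusted p = 0.092), without oxybutynin replicates 1, 2 or 3 (0.204, 0.0971 and 0.0896) or after the adjustment.

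The other 4 RNAs shown above had the same order of groups, by which they were chosen, without passing the threshold. Gm26397 had 12.7, 9.04 and 14.7 CPM with vehicle and 25.1, 23.6 and 24.9 CPM with oxybutynin (log2 fold change 1.02 ± 0.17, adjusted p = 0.0509). Snora23 had 151, 84.3 and 146 CPM and 218, 202 and 213 CPM (0.73 ± 0.15, adjusted p = 0.0638). In each of the 4, vehicle replicate 2 was the lowest library. Snora73b had 76.3, 31.8 and 85.9 CPM and 140.2, 111 and 107 CPM (0.89 ± 0.23, adjusted p = 0.069). Gm24119 had 15.1, 7.82 and 15.5 CPM and 22.9, 19.7 and 25.7 CPM (0.83 ± 0.18, adjusted p = 0.0642). Their hosts had log2 fold changes of -0.03 ± 0.07 (Tomm20), -0.24 ± 0.10 (Ipo7), 0.14 ± 0.08 (Rcc1) and 0.11 ± 0.08 (Slc25a3), none called, and of these hosts only Rcc1 had groups that did not overlap.

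Among all 87 small nucleolar and Cajal body RNAs tested (76 and 11), the 1 call was Gm24616. The small nucleolar RNAs had a median log2 fold change of 0.41, with 22 of 76 wholly higher and 2 wholly lower with oxybutynin, beside 10.5% and 11.6% of all genes, and a median of 0.14 after the adjustment. The 11 Cajal body RNAs had 0.53 and 0.28, and the 49 small nuclear RNAs 0.32 and 0.13. Wholly higher were 6 of the 11 and 10 of the 49, and wholly lower 1 in each class. Over all genes tested the median was -0.00 in both fits. Of the 87, 78 lie within 68 tested host genes on the same strand, and 54 of the 78 had a higher log2 fold change than the host. The median was 0.39 for these RNAs and -0.02 for the hosts (a description, since the RNAs differ from their hosts in length). The 47 RNAs with an ACA followed by 2 to 4 bases had a median of 0.60 (lowest -0.97, highest 1.48), 20 wholly higher and 1 wholly lower, beside 10.5% and 11.6% of all genes. The 40 without it had 0.27, 8 and 2, and after the adjustment the medians were 0.26 with the ACA and 0.06 without. Such an ACA ends 54.0% of the 87 RNAs and, in the same place, 7.33% of the longest transcripts of 12966 protein-coding genes. The median lengths of these groups, 134 and 84 bases, differ too, and their part was not tested. Without knockout vehicle replicate 3 the small nucleolar RNAs gave 18 calls higher and 1 lower, beside 12% and 14.8% of all genes. Replicate 2 was the lowest library of the group (median -0.47 from the mean of the 6 knockout libraries), and without it there were 6 and 0, beside 0.0763% and 0.318%, and the median was 0.26. The Y RNAs, small cytoplasmic RNAs bound by the Ro protein, followed the same libraries. Rny1 had 23.9, 10.4 and 35.1 CPM with vehicle and 54.6, 45.4 and 36.7 CPM with oxybutynin (0.98 ± 0.29, adjusted p = 0.0834), with vehicle replicate 3 close to oxybutynin replicate 3.

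**Figure D3:**
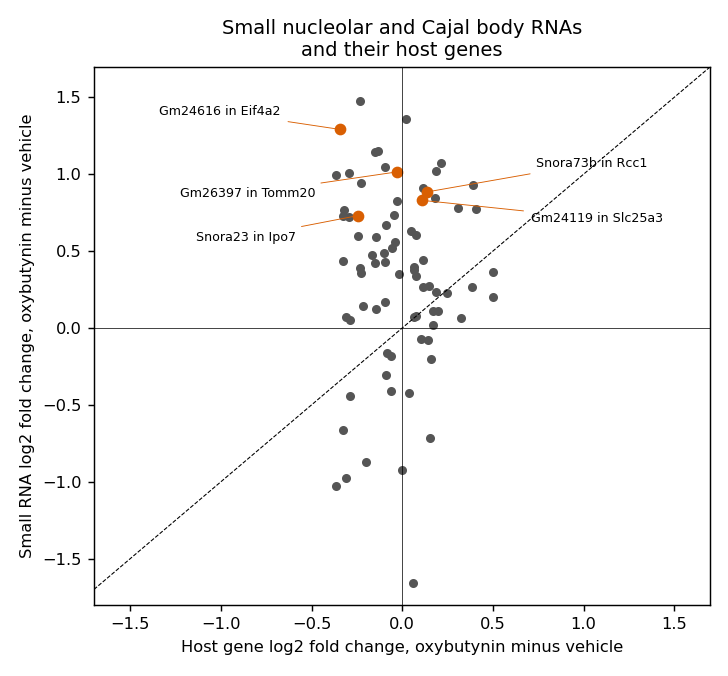
Log2 fold change between oxybutynin and vehicle of 78 small nucleolar and Cajal body RNAs (y axis) against that of the host gene whose intron holds each (x axis), 1 point per small RNA, with the 5 RNAs whose sequences are printed in orange and the line of equal values dashed. Of the points, 54 lie above the line, and the medians are 0.39 for the small RNAs and -0.02 for the hosts.

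Next to the 2 called genes stood 11 with an adjusted p of 0.0509, 10 lower and 1 higher (Gm26397). They were chosen for description after their values were seen, because no called gene met the rule for naming genes (at least 10 CPM on average and a symbol other than a clone identifier). The 10 lower ones were Mybpc1, Lmod3, Hmgcs1, Acsl3, Gnai3, Gprasp1, Hnrnpa3, Cbx3, Serpinb1a and Etfrf1, which are described 1 by 1. With knockout libraries alone, the adjusted p was 0.102 for Mybpc1 and Serpinb1a, 0.203 for the other lower ones and 0.0150 for Gm26397. With 1 floxed library left out, the lower ones had an adjusted p of 0.0811 to 0.119. The lower ones were called under 5 (Hnrnpa3) to 9 (Mybpc1) of 21 or 22 settings, and Gm26397 under 11 of 20. In each of the 10, every oxybutynin library lay below every vehicle library, as in 11.6% of all genes. The choice of these 10 by their p-value favours this. In 9 of the 10, all but Serpinb1a, vehicle replicate 3 was the lowest of the vehicle libraries.

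Mybpc1 (chromosome 10, 88518279 to 88605152, minus strand), the slow form of myosin-binding protein C that links thick and thin filaments, had 92.6, 73.3 and 67.6 CPM with vehicle and 47.7, 53.2 and 48.5 CPM with oxybutynin. The log2 fold change was -0.64 ± 0.11 (adjusted p = 0.0509). After the GC and length adjustment it was called (-0.56 ± 0.09, adjusted p = 0.0457), and it stood at 67.1 ± 5.64 CPM in floxed cells. Lmod3 (chromosome 6, 97238534 to 97252759, minus strand), a leiomodin that nucleates thin filaments, had 13.8, 12.6 and 10.6 CPM against 7.18, 7.44 and 8.22 CPM (-0.69 ± 0.13, and -0.65 ± 0.11 after adjustment, adjusted p = 0.0554).

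Hmgcs1 (chromosome 13, 119690379 to 119708260, plus strand), which makes the HMG-CoA from which cholesterol is built, had 48.0, 47.1 and 39.0 CPM with vehicle, 32.7, 28.4 and 30.4 CPM with oxybutynin and 106 ± 1.17 CPM in floxed cells (-0.55 ± 0.09 between the knockout groups). Acsl3, which activates long-chain fatty acids, had 20.3, 22.3 and 17.6 CPM and 12.9, 12.8 and 13.9 CPM (-0.60 ± 0.11). Both were lower in knockout vehicle than in floxed cells as well (log2 fold changes of -1.25 ± 0.09 and -1.13 ± 0.10, adjusted p = 3.56e-09 and 4.83e-08). That comparison uses the same vehicle libraries, so the differences are not independent of each other. It called 9956 genes (63.3%) and was not adjusted for GC content here. Both transcripts lie in GC decile 2 of protein-coding genes. The median log2 CPM of that decile, minus the mean of all 9 libraries, was 0.45 to 0.47 in floxed libraries. In knockout vehicle libraries it was -0.27 to 0.02, and the part of this trend in the 2 differences was not tested.

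Gnai3 (chromosome 3, 108107280 to 108146146, minus strand), an inhibitory G protein alpha subunit of the kind that M2 and M4 receptors use, had 63.6, 76.9 and 54.3 CPM with vehicle and 45.1, 39.8 and 44.0 CPM with oxybutynin (-0.60 ± 0.11). Gprasp1, which sorts G protein-coupled receptors to lysosomes, had 22.6, 22.6 and 18.6 CPM and 14.2, 14.5 and 13.7 CPM (-0.59 ± 0.10). After the adjustment both stood at an adjusted p of 0.0554. Hnrnpa3, an RNA-binding protein of the nucleus, had 145, 144 and 115 CPM and 101, 89.4 and 95.1 CPM (-0.50 ± 0.09). Cbx3, the heterochromatin protein HP1 gamma, had 42.4, 49.2 and 38.5 CPM and 30.7, 29.5 and 31.3 CPM (-0.51 ± 0.09). For these transcripts, with a GC content of 39.9% and 38.7%, the adjustment moved the log2 fold change to -0.28 and -0.35. Serpinb1a, a protease inhibitor, had 7.08, 6.57 and 6.80 CPM and 3.80, 3.66 and 3.82 CPM (-0.86 ± 0.15), and floxed cells had 2.78 ± 0.419 CPM. Etfrf1, a regulator of the electron transfer flavoprotein, had 13.9, 15.1 and 12.8 CPM and 8.45, 8.62 and 10.2 CPM (-0.62 ± 0.11).

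**Figure D4:**
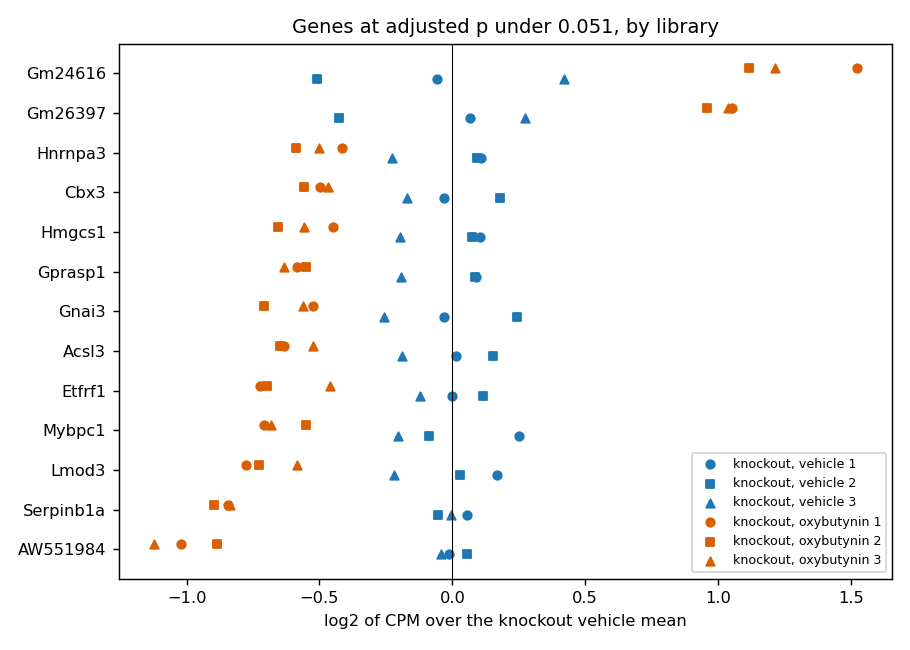
Log2 of CPM over the mean of the 3 knockout vehicle libraries (x axis) for the 13 genes with an adjusted p under 0.051 (y axis), 1 point per library, knockout vehicle in blue and knockout oxybutynin in orange. The groups do not overlap for any of the 13, with 2 of them higher and 11 lower in the oxybutynin libraries. The choice by p-value favours this, and the groups do not overlap for 22.1% of all genes.

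After the adjustment, 2 genes were called higher that were not called in the main fit. Xpo6 (chromosome 7, 126101715 to 126200501, minus strand), the exportin that carries actin out of the nucleus, had 198, 227 and 214 CPM with vehicle and 239.7, 245 and 240.4 CPM with oxybutynin, with a log2 fold change of 0.18 ± 0.08 as fitted (adjusted p = 0.147) and 0.42 ± 0.07 after it (adjusted p = 0.0457). Mms19 (chromosome 19, 41941086 to 41981157, minus strand), which delivers iron-sulphur clusters to proteins of the cytosol and nucleus, had 75.1, 79.8 and 79.1 CPM and 95.3, 93.9 and 97.5 CPM, with 0.29 ± 0.08 as fitted (adjusted p = 0.0695) and 0.39 ± 0.06 after it (adjusted p = 0.0457). In both, all oxybutynin libraries lay above all vehicle libraries in the unadjusted CPM. Xpo6 was called under 3 of 22 settings, all with the adjustment. Mms19 was called under 5 of 22, which were the adjusted fits, DESeq2's test and the fit without knockout vehicle replicate 3.

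Of the receptors that oxybutynin blocks, 1 was expressed well enough to be tested. Chrm3 (chromosome 13, 9875486 to 10360847, minus strand), the M3 receptor, was the only one of the 5 that passed the filter on low counts, with 94, 82 and 66 counts in vehicle and 76, 70 and 60 in oxybutynin libraries, or 4.38, 3.43 and 2.67 CPM against 3.10, 2.75 and 2.696 CPM. The groups overlapped (-0.29 ± 0.19, adjusted p = 0.356), and floxed cells had 3.39 ± 0.119 CPM. Chrm1 had 0, 0 and 2 counts with vehicle and 3, 3 and 0 with oxybutynin, Chrm2 had 1 count in 1 vehicle library and 0 in all others, and Chrm4 had 4, 3 and 0 with vehicle and 7, 8 and 8 with oxybutynin. Chrm5 had 0 counts in all 9 libraries. Floxed cells had 5, 8 and 2 counts of Chrm4, which did not pass the filter and was not tested. Of the 34 genes of muscarinic coupling and calcium release, 29 were tested and 0 were called. Of the 29, 4 lay wholly higher and 7 wholly lower, beside 10.5% and 11.6% of all genes. The median log2 fold change of the list was -0.12 (-0.03 after the adjustment). The Gq subunit Gnaq had 53.8, 52.8 and 54.6 CPM and 51.3, 45.6 and 50.1 CPM (-0.13 ± 0.08, adjusted p = 0.287), and Gnai2 509, 560.2 and 600.4 CPM and 629.8, 606 and 653 CPM (0.18 ± 0.08, adjusted p = 0.168). Rgs5, which speeds the shut-off of Gq and Gi, had 32.4, 35.9 and 28.8 CPM and 23.9, 22.5 and 23.1 CPM (-0.48 ± 0.10, adjusted p = 0.0638). When knockout vehicle replicate 2 was left out, Gnai3 and Rgs5 were called lower (log2 fold changes of -0.46 and -0.40) and 0 higher, beside 0.318% and 0.0763% of all genes, and the median of the list was -0.03. With replicate 3 left out it gave 5 calls higher and 6 lower, beside 12% and 14.8%.

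Proliferation genes gave no call in either direction in the main edgeR fit. Mki67, which marks cycling cells, had 86.5, 101 and 88.7 CPM with vehicle and 71.5, 66.6 and 80.6 CPM with oxybutynin, every oxybutynin library below every vehicle library, with a log2 fold change of -0.33 ± 0.09 (adjusted p = 0.0754) and -0.15 after the adjustment. Floxed cells had 605 ± 42.7 CPM, and knockout vehicle differed from them by -2.72 ± 0.10 on the log2 scale (adjusted p = 1.35e-12). Myc had 126 ± 12.8 CPM with vehicle and 142 ± 11.8 CPM with oxybutynin (0.17 ± 0.09). Ccnd1, the cyclin of G1, had 1401 ± 101 and 1438 ± 74.0 CPM (0.04 ± 0.08). Of the mitotic regulators, Ccnb1 had 109 ± 23.1 and 97.4 ± 3.17 CPM (-0.16 ± 0.11) and Cdk1 83.2 ± 4.41 and 82.4 ± 4.50 CPM (-0.01 ± 0.08). None of these 4 was called, with adjusted p-values from 0.227 (Myc) to 0.933 (Cdk1).

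The mitosis list, 46 genes of spindle, kinetochore and cytokinesis, had 0 calls. It had 4 members wholly higher and 13 wholly lower, beside 10.5% and 11.6% of all genes. Its median log2 fold change was -0.19, which was -0.06 after the adjustment. Its members with the lowest p were Nuf2 (-0.51 ± 0.11, adjusted p = 0.0644), a kinetochore protein, and Top2a (-0.37 ± 0.09, adjusted p = 0.0644), which untangles chromosomes, both named after their values were seen. Nuf2 had 24.6, 26.5 and 18.8 CPM with vehicle and 16.3, 15.6 and 17.0 CPM with oxybutynin, and Top2a 122, 129.7 and 114 CPM and 98.3, 82.7 and 101 CPM. The list gave, without knockout vehicle replicate 3, 16 calls lower and 3 higher, beside 14.8% and 12% of all genes, and with the adjustment as well 1 lower (Nuf2, -0.41) and 0 higher, beside 2.46% and 1.6%. Leaving out replicate 2 instead gave 0 calls and a median of -0.09. DESeq2's Wald test over all 9 libraries called 10 of the list lower and 0 higher. Over all genes to which it gave an adjusted p, the shares were 10.3% and 1.86%. The 42 genes of S phase and licensing had 0 calls, 7 wholly higher and 3 wholly lower, and a median of -0.01 (0.01). All 37 tested replication-dependent histone genes, whose messages lack a poly(A) tail and are made in S phase, had a log2 fold change above 0, with a median of 0.27, but 1 of the 37 was wholly higher and the median was 0.02 after the adjustment. For these histones vehicle replicate 2 stood at -0.60 and oxybutynin replicate 1 at 0.52 from the mean of the 6 knockout libraries, and without vehicle replicate 2 the median was 0.07. Among the brakes on the cycle, Cdkn1a (p21) had 481 ± 100.2 CPM with vehicle and 538 ± 36.7 with oxybutynin (0.16 ± 0.12, adjusted p = 0.387), and Cdkn2a (p16 and p19) 65.3 ± 10.5 and 78.4 ± 9.49 (0.27 ± 0.11, adjusted p = 0.162, and -0.00 after the adjustment).

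The p53 target list of 23 tested genes held 0 calls and had a median of 0.04 (-0.02). It had 4 members wholly higher and 4 wholly lower, beside 10.5% and 11.6% of all genes. Pmaip1 (Noxa), a trigger of apoptosis, had 40.3, 38.8 and 26.9 CPM with vehicle and 23.3, 23.8 and 25.9 CPM with oxybutynin (-0.54 ± 0.12, adjusted p = 0.0644). Bbc3 (Puma), another such trigger, had 16.6, 11.1 and 16.6 CPM and 21.8, 19.7 and 19.5 CPM (0.46 ± 0.13, adjusted p = 0.0794), so the pair lay in opposite directions and neither was called.

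Sarcomere genes had a median below 0 that lay further from 0 after the adjustment for GC content. The 43 genes of myogenic differentiation and sarcomere had 0 calls. Of the 43, 4 were wholly higher and 7 wholly lower, beside 10.5% and 11.6% of all genes. The median log2 fold change of the list was -0.07, and -0.16 after the adjustment, beside -0.00 for all genes. These transcripts have a median GC content of 54.0%, in the decile of GC content with a median of 0.14 over protein-coding genes. As a deviation from the mean of the knockout libraries, the list median was 0.16, -0.15 and 0.09 in the vehicle libraries, in order of replicate. In the oxybutynin libraries it was -0.04, 0.01 and -0.08. Vehicle replicate 2 thus lay below every oxybutynin library for the list of sarcomere genes. In bulk RNA, fewer cells of a type and less of an RNA per cell cannot be told apart, so a lower level of these genes can be either. Myh8, the perinatal myosin heavy chain, had 203, 161 and 140.4 CPM with vehicle and 105, 135 and 104 CPM with oxybutynin, with a log2 fold change of -0.55 ± 0.13 (adjusted p = 0.0644) and -0.60 ± 0.12 after the adjustment. Myh1, an adult fast myosin, had 344, 276 and 226 CPM and 191, 226 and 184 CPM (-0.49 ± 0.12, adjusted p = 0.0673). In Myh8 each oxybutynin library lay below each vehicle library, and in Myh1 the highest oxybutynin value, in replicate 2, nearly equalled the lowest vehicle value, in replicate 3. Both genes were highest in vehicle replicate 1. Outside the list and chosen after their values were seen, Lmod2, another leiomodin, had 23.7, 27.7 and 20.8 CPM and 16.7, 15.6 and 17.8 CPM (-0.53 ± 0.11), and Hrc, a calcium-binding protein of the sarcoplasmic reticulum, 23.2, 22.9 and 17.8 CPM and 14.3, 17.7 and 15.5 CPM (-0.42 ± 0.12).

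When knockout vehicle replicate 2 was left out, Myh8 (-0.58), Tnnc2 (-0.49, fast troponin C) and Tnnt3 (-0.38, fast troponin T) were called lower from this list and 0 higher, beside 0.318% and 0.0763% of all genes, and the median was -0.15. Leaving out replicate 3 instead gave 4 calls higher (Chrnd, Chrng, Jph2 and Mef2d) and 7 lower (Casq2, Klhl41, Mef2a, Mef2c, Myh1, Myh3 and Myh8), beside 12% and 14.8%. With the adjustment and without knockout vehicle replicate 3, 9 were called lower and 0 higher, which were Acta1, Actn2, Mb, Myh1, Myh3, Myh7, Myh8, Tnnc2 and Tnnt3, from -0.32 (Mb) to -0.73 (Myh8), beside 2.46% and 1.6% of all genes. The regulators of differentiation were not called. Myog, the factor that commits cells to fuse, had 132, 127 and 149.6 CPM with vehicle and 145, 139 and 144 CPM with oxybutynin (0.07 ± 0.09, adjusted p = 0.619). Mymk, the fusion protein myomaker, had 68.3 ± 10.3 and 70.6 ± 4.01 CPM (0.05 ± 0.10, adjusted p = 0.793). Myod1 had 1302 ± 229 and 1526 ± 113 CPM (0.23 ± 0.10), and Des 936 ± 146 and 1053 ± 59.0 CPM (0.17 ± 0.10), with adjusted p-values of 0.178 and 0.274.

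Of the 25 tested genes of satellite cell and myoblast identity, 0 were called, 4 were wholly higher and 5 wholly lower, and the median was 0.05 (-0.02). Pax7, the factor that marks satellite cells and early myoblasts, had 376, 380.4 and 399.6 CPM with vehicle and 422, 431 and 407 CPM with oxybutynin (0.13 ± 0.07, adjusted p = 0.276). Myf5, the early myogenic factor, had 46.6, 46.4 and 41.3 CPM and 38.9, 34.6 and 34.5 CPM (-0.31 ± 0.09, adjusted p = 0.0775). The groups did not overlap for either gene, in opposite directions, and after the adjustment the log2 fold changes were 0.03 and -0.16.

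Genes of the stress response that follows a block of the respiratory chain stood slightly higher with oxybutynin without passing the test. ATF4 is the transcription factor through which cells raise amino acid synthesis and transport when mitochondria fail. Of 38 tested ATF4 targets 0 were called, 30 had a log2 fold change above 0, and the median was 0.21 (0.09 after the adjustment). Wholly higher were 8 and wholly lower 3, beside 10.5% and 11.6% of all genes. Atf4 itself had 794, 772 and 936 CPM with vehicle and 992, 899 and 1044 CPM with oxybutynin (0.23 ± 0.09, adjusted p = 0.129), against 380.3 ± 8.13 CPM in floxed cells. Trib3, an ATF4 target, had 133, 124 and 180.4 CPM and 204, 180.5 and 179 CPM (0.37 ± 0.12, adjusted p = 0.0971), where vehicle replicate 3 fell within the oxybutynin range. Ddit3 (CHOP) had 42.3, 48.4 and 52.1 CPM and 52.4, 54.4 and 62.8 CPM (0.25 ± 0.10), and the secreted factors Gdf15 and Fgf21 had 107 ± 21.04 against 129 ± 14.8 CPM (0.26 ± 0.12) and 50.0 ± 10.1 against 53.5 ± 2.07 CPM (0.10 ± 0.12). The adjusted p was 0.148 for Ddit3, 0.171 for Gdf15 and 0.637 for Fgf21. Slc7a5, the large neutral amino acid transporter, had 599, 699 and 813 CPM and 919, 825 and 881 CPM (0.31 ± 0.10, adjusted p = 0.0868).

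Leaving out knockout vehicle replicate 3, the ATF4 list gave 21 calls higher and 3 lower, beside 12% and 14.8% of all genes. Trib3 (0.55), Shmt2 (0.47) and Phgdh (0.44) had the highest log2 fold changes among them, and Cebpg, Eprs and Nars were lower. With the adjustment as well, 5 were called higher (Asns, Ddit3, Eif4ebp1, Pck2 and Sars, from 0.27 to 0.42) and 0 lower, beside 1.6% and 2.46% of all genes. With knockout vehicle replicate 2 left out instead it was 0 in each direction, and the median was 0.14. The median log2 CPM of this list, as a deviation from the mean of the 6 knockout libraries, was -0.12, -0.22 and 0.04 in vehicle replicates 1 to 3 and 0.16, 0.04 and 0.06 in the oxybutynin libraries, so replicate 3 of the vehicle lay with the drug-treated libraries. Phgdh, Psph and Shmt2 also belong to the 23 genes of serine and one-carbon metabolism, whose median was 0.06 (0.08) with 0 calls.

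Of 25 genes of the endoplasmic reticulum's response to unfolded proteins, 0 were called and 15 had a log2 fold change below 0. Wholly higher was 1 and wholly lower were 8, beside 10.5% and 11.6% of all genes, and the median was -0.07 (-0.03 after the adjustment and without vehicle replicate 2). Canx, a chaperone of glycoproteins, had 496, 516 and 399 CPM with vehicle and 365, 336 and 370.4 CPM with oxybutynin (-0.40 ± 0.09, adjusted p = 0.0644). Hspa5 (BiP), the master chaperone of this compartment, had 473, 449 and 399 CPM and 395, 339.9 and 334 CPM (-0.30 ± 0.09, adjusted p = 0.0801). In both, vehicle replicate 3 was the lowest vehicle library, and in Hspa5 it lay close to oxybutynin replicate 1.

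The lysosome list had the largest share of wholly separate members among lists of at least 30 tested genes. Of 36 tested, 0 were called, 12 were wholly higher and 2 wholly lower (38.9% together, beside 22.1% of all genes), and the median was 0.18 (0.09 after the adjustment). Tfe3, a factor that switches on lysosomal genes, had 105, 111 and 128 CPM with vehicle and 142, 133 and 145 CPM with oxybutynin (0.29 ± 0.09, adjusted p = 0.0834, and 0.28 after the adjustment). Gpnmb, a transmembrane glycoprotein of lysosomes and melanosomes, had 233, 253 and 256 CPM and 285, 280.2 and 291 CPM (0.21 ± 0.07, adjusted p = 0.12), both above the 38.01 ± 1.95 CPM of floxed cells. Ctsd, the protease cathepsin D, had 205, 131 and 204 CPM and 229, 230.5 and 216 CPM (0.32 ± 0.12, adjusted p = 0.131). For all 3 each oxybutynin library lay above each vehicle library. When knockout vehicle replicate 3 was left out, 18 members were called higher and 3 lower (Lamp2, Scarb2 and Tpp1), beside 12% and 14.8% of all genes. With the adjustment as well 6 were higher (among them Ctsb, Gpnmb, Lipa, Npc1 and Tfe3, from 0.24 for Ctsb to 0.44 for Npc1) and 0 lower, beside 1.6% and 2.46%. Without replicate 2 it was 0 in each direction, and the median was 0.11.

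Messages of the mitochondrial genome and nuclear genes for the same complexes had medians on opposite sides of 0. The 10 tested messenger RNAs of the mitochondrial genome had 0 calls and a median log2 fold change of -0.21 (-0.08 after the adjustment). Of these 10, 1 was wholly higher and 0 wholly lower, beside 10.5% and 11.6% of all genes. The 36 nuclear genes for complex I had a median of 0.18 (0.05), and the 30 for complexes II, IV and V 0.11 (0.04). For complex I, 8 were wholly higher and 1 wholly lower, beside 10.5% and 11.6% of all genes. For complexes II, IV and V these counts were 1 and 0. The 15 genes of complex III and its assembly had 0.07 (0.06), with 2 wholly higher, Uqcr10 (0.35 ± 0.12) and the assembly chaperone Bcs1l (0.21 ± 0.09). Both lists of nuclear subunits moved with vehicle replicate 2, whose median lay at -0.48 for complex I and -0.47 for complexes II, IV and V from the mean of the 6 knockout libraries, and without it the medians were 0.01 and -0.02. For complex III it lay at -0.24, and without it the median was -0.01. For the mitochondrial messages it lay at 0.34, and without it the median was -0.10. Oxybutynin replicate 3 lay at 0.12 for these messages, above vehicle replicates 1 and 3 (-0.0061 and -0.028). Oxybutynin replicates 1 and 2 lay at -0.21 and -0.24. Nuclear copies of mitochondrial genes can share reads with them, and the counting rule is not stated in the sources used here. Of 30 genes of mitochondrial biogenesis and maintenance, 0 were called, 1 was wholly higher and 7 wholly lower, and the median was -0.07 in both fits. Ppargc1a, a coactivator that raises mitochondrial mass, had 19.1, 21.3 and 18.6 CPM with vehicle and 14.4, 14.6 and 17.2 CPM with oxybutynin (-0.35 ± 0.10, adjusted p = 0.0802). Hspd1, the chaperonin of the matrix, had 164, 139 and 119 CPM and 111, 100.2 and 105 CPM (-0.42 ± 0.10, adjusted p = 0.0644, and -0.34 after the adjustment), and was called without vehicle replicate 2 (-0.43).

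Of 27 genes of the tricarboxylic acid cycle and its entry 0 were called, 1 was wholly higher and 5 wholly lower, with a median of -0.03 (-0.01). Those 5 were all dehydrogenases or ligases of the mitochondrial matrix or cytosol. Pdha1, the catalytic subunit of pyruvate dehydrogenase, had 135, 130.2 and 108 CPM with vehicle and 90.0, 101 and 87.7 CPM with oxybutynin (-0.42 ± 0.09, adjusted p = 0.0638). Dld, the dihydrolipoamide dehydrogenase of that complex, had 47.9, 49.1 and 41.7 CPM and 35.5, 29.9 and 34.3 CPM (-0.48 ± 0.10, adjusted p = 0.0638). Both were called without vehicle replicate 2 (-0.39 and -0.43), and with the adjustment and without replicate 3 so were Idh1, Idh3a and Sucla2 (-0.38, -0.31 and -0.39), all 5 lower and 0 higher, beside 2.46% and 1.6% of all genes. Without replicate 3 and with no adjustment, 3 genes of the list were called higher (Idh2, Idh3g and Sdhb) and 8 lower, beside 12% and 14.8%. Glycolysis genes had a median of 0.20 (0.06 after the adjustment), with 2 of 25 wholly higher and 1 wholly lower. Without vehicle replicate 2, which lay at -0.38 for this list, the median was 0.05. Hk2, the hexokinase of growing muscle cells, had 173, 176 and 188 CPM and 173, 188 and 179.9 CPM (0.01 ± 0.07, adjusted p = 0.956).

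The 26 genes of cholesterol synthesis and uptake had 0 calls, 2 wholly higher and 6 wholly lower, and a median of 0.04, which turned to -0.04 both after the adjustment and without vehicle replicate 2. Besides Hmgcs1, Idi1 (6.71, 7.32 and 5.47 CPM with vehicle, 4.08, 4.603 and 4.54 CPM with oxybutynin, -0.56 ± 0.14) lay lower without overlap, whereas Dhcr7 (0.26 ± 0.10), which acts late in the path, lay higher without overlap. The 18 genes of fatty acid synthesis had a median of -0.12 (-0.04), with 1 wholly higher and 4 wholly lower. The 25 targets of NRF2, the factor of the oxidant response, had 0 calls. Wholly higher were 6 and wholly lower 0, beside 10.5% and 11.6% of all genes. These targets had a median of 0.11 (0.01), and 0.05 without vehicle replicate 2. Hmox1, the haem oxygenase among them, had 345, 343 and 395 CPM with vehicle and 410.1, 374 and 441 CPM with oxybutynin (0.18 ± 0.09, adjusted p = 0.203).

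The 48 cytosolic ribosomal proteins had 0 calls and a median of 0.15 (0.07 after the adjustment). Of the 48, 8 were wholly higher and 1 wholly lower, beside 10.5% and 11.6% of all genes. Rpl19 had 141, 75.6 and 129 CPM with vehicle and 177, 181 and 160.0 CPM with oxybutynin (0.58 ± 0.15, adjusted p = 0.0682), and Rplp1 335, 136 and 289 CPM and 424, 405 and 398 CPM (0.69 ± 0.20, adjusted p = 0.0814). In both, vehicle replicate 2 was far below the other 2 vehicle libraries, and without it both were called higher, at 0.36 and 0.39, while the median of the list was 0.02. The 43 genes of the primary cilium and centrosome had a median of -0.15 (-0.05), 3 wholly higher and 9 wholly lower, and 0 calls. The 32 collagen and matrix genes had a median of 0.01, with 3 and 6, which turned to -0.08 after the adjustment and -0.05 without vehicle replicate 2, and Col1a1 had 54.4 ± 8.25 CPM with vehicle and 58.9 ± 9.97 CPM with oxybutynin (0.12 ± 0.12). The other lists, which were G1 cyclins and CDK inhibitors, immediate early genes, nucleotide and aspartate synthesis, hypoxia, fatty acid oxidation, LXR targets, xenobiotic enzymes and transporters, interferon-stimulated genes, chemokines, TGF-beta and BMP targets, Notch and Wnt, growth factors and mitochondrial ribosomal proteins, had 0 calls and medians between -0.08 and 0.16 as fitted and between -0.11 and 0.07 after the adjustment. Their shares of wholly separate members ran from 7.7% (Notch and Wnt) to 32.0% (TGF-beta and BMP targets), beside 22.1% of all genes.

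**Figure D5:**
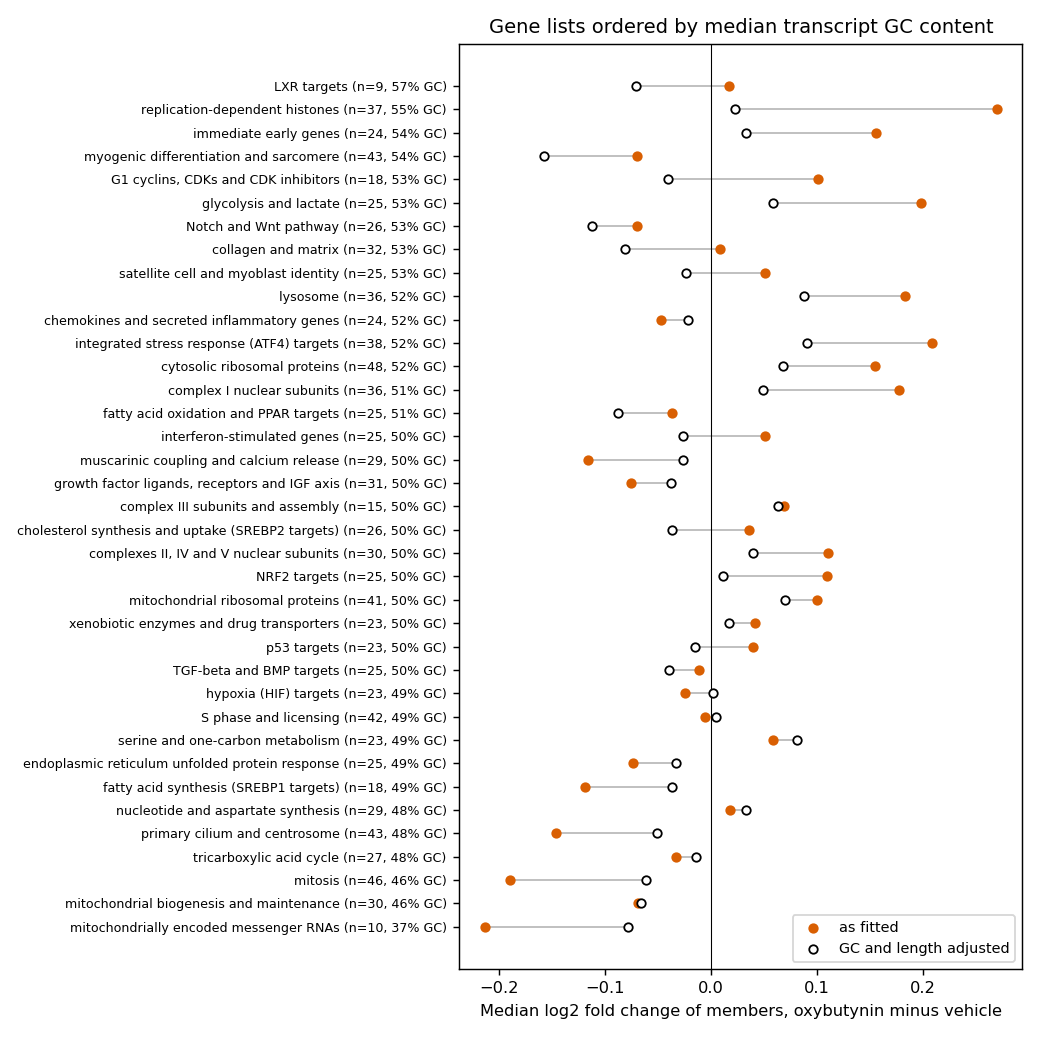
Median log2 fold change between oxybutynin and vehicle (x axis) for each gene list (y axis, number of tested genes and median GC content in brackets), ordered by GC content, as fitted in orange and after the GC and length adjustment as open circles. Lists of high GC content lie mostly to the right as fitted, the histones move from 0.27 to 0.02 with the adjustment, and the sarcomere list moves from -0.07 to -0.16.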

How the data were processed

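RNA sequencing counts were analysed for 9 libraries, 3 in each group. The deposited table holds raw counts per gene, whole numbers with no scaling, and all of its sample columns matched a label (0 unmapped). The submitters' processing notes name Trim Galore 0.6.0, cutadapt, FastQC, STAR 2.7.0e, DESeq2 1.26.0, GRCm38 and mm10. Per the labels' protocols, RNA came from Trizol and libraries from a directional kit, while the counting step, its strand setting and its annotation release are not stated in the sources used here, so a gene and an antisense neighbour may share reads. All 55536 gene identifiers matched GENCODE M21, which gave names, positions and sequences.

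Genes passing edgeR's expression filter were fitted with edgeR 4.0.16 (R 4.3.3), TMM scaling and the quasi-likelihood test over all 9 libraries, with 6 residual degrees of freedom. A call is a Benjamini-Hochberg adjusted p under 0.05 over 15720 genes, and errors are standard errors of log2 fold changes or SD of CPM (n = 3). The GC and length adjustment used splines of 6 degrees of freedom per library as offsets. The rule for naming took called genes of at least 10 CPM whose groups did not overlap, and 0 genes met it, so the genes shown with values were picked after their values were seen, except Uqcrfs1, Chrm1 to Chrm5, Mki67, Cdkn1a, Cdkn2a, Ccnd1, Ccnb1, Cdk1, Myc, Pax7, Myf5, Myod1, Myog, Mymk, Des, Atf4, Ddit3, Gdf15, Fgf21, Hmox1, Hk2, Ppargc1a and Col1a1. Results for some genes are not reported here. The comparison, its gene lists and its tests were chosen with earlier results of these data known. Alternatives were DESeq2 1.42.0, limma-voom (limma 3.58.1), other scalings, filters and gene sets, and leaving out each library. The adjusted fits without a vehicle library and the threshold of 0.1 were added after seeing the data. The fit was tested on simulated counts that held no outlying library and no GC trend among the knockout libraries. That test therefore does not bear on how these features move the calls. Totals of 21257482 to 26226949 counts in the knockout libraries set the counting error.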

Additional observations from a re-analysis of the deposited data

How the results depend on the processing

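Genes called numbered 2 (1 higher, 1 lower) in the fit of all 9 libraries. DESeq2 called 1133 (173 and 960), limma-voom 3 (2 and 1), edgeR with DESeq2's size factors 7 (2 and 5), library totals 158 (10 and 148), no filter 1099 (277 and 822), knockout libraries only 2 (2 and 0), protein-coding nuclear genes 1 (0 and 1) and the set without structural RNAs 1 (0 and 1). The GC and length adjustment gave 4 (2 and 2), with vehicle replicate 2 also left out 14 (4 and 10) and with replicate 3 left out 637 (251 and 386). Thresholds of 0.01 and 0.1 gave 0 and 1189 (279 and 910). With knockout libraries only, the threshold of 0.1 gave 3. Leaving out 1 library at a time gave 0 to 4208 genes, 0 to 1887 higher and 0 to 2321 lower, and 4208 is the count without knockout vehicle replicate 3. Genes with small log2 fold changes, called neither in the fit of all libraries nor in the alternative, took the other sign in 46 alternative fits. With another test or scaling or with the adjustment the values of these were Ccnb1 (0.11), Ccnd1 (-0.032, -0.0071 and -0.030), Cdk1 (0.077, 0.073 and 0.079), Cdkn1a (-0.085), Cdkn2a (-2.2e-04, -0.010 and -0.035), Col1a1 (-0.014 and -0.044), Des (-0.037), Fgf21 (-0.079, -0.16 and -0.040), Hk2 (-0.0034, -0.060, -0.0051 and -0.0028), Mymk (-0.018, -0.12, -0.17 and -0.13), Myod1 (-0.012), Myog (-0.10, -0.066 and -0.097) and Uqcrfs1 (-0.0021 and -0.025). Leaving out 1 library at a time gave ranges of -0.28 to 0.024 (Ccnb1), -0.0048 to 0.098 (Ccnd1), -0.056 to 0.031 (Cdk1), -0.0024 to 0.26 (Cdkn1a), -0.030 to 0.23 (Col1a1), -0.060 to 0.21 (Fgf21), -0.022 to 0.044 (Hk2), -0.072 to 0.12 (Mymk) and -0.028 to 0.19 (Uqcrfs1). The cause was not tested. No paired analysis was possible because the sample numbers are unique to each library and the groups share none. The number of calls rests on 3 vehicle libraries, of which replicate 3 lay with the oxybutynin libraries and replicate 2 apart from the rest.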
